A study of Caenorhabditis elegans with 2 samples.

Results

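The 9 proneural basic helix-loop-helix (bHLH) genes hlh-2, hlh-3, hlh-4, hlh-6, hlh-10, hlh-14, lin-32, cnd-1 and ngn-1 of Caenorhabditis elegans were examined in the peaks of a ChIP-seq study (sequencing of DNA precipitated with a protein) of the tagged Hox protein CEH-13. They were taken by name, and all 9 of 9 were found among the 19973 protein-coding genes of the nuclear chromosomes. For each gene, peaks were taken whose summit lay between 5 kb upstream of the 5′ end and 1 kb beyond the gene end, weak peaks included; this span is called the window of the gene. No window held a peak of the authors' thresholded list, beside 5.14% of all protein-coding genes with one. Peaks of the list pooled from both replicates had a median signal of 31.0 there, near the 32.1 of that whole list. Peaks of both replicates overlapped 38.7% of them, beside 43.6% of all pooled peaks. For 64.5% the nearest protein-coding 5′ end was the gene's own, beside 46.5% over the windows of all protein-coding genes. This share depends on how close neighbouring genes lie, and hlh-4, hlh-6 and hlh-10 gave no such peak.

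The samples formed 1 group of 2 biological replicates: mixed-sex whole embryos aged 2 hours, obtained by egg bleaching, of strain OP756. The worms carried the transgene wgIs756, in which ceh-13 is fused at its C-terminal end to a TY1::EGFP::3xFLAG tag and which also holds a working unc-119 copy, in worms with the unc-119(tm4063) allele. Chromatin was precipitated with an anti-GFP antibody, so the tagged protein alone was assayed, and whole embryos do not tell which cells a signal came from. There was 1 group, so the data hold no comparison between conditions.

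The authors deposited the 4 peak lists used. Both replicates and their pool each had a list of 30000 peaks, and the list that passed the irreproducible discovery rate step (IDR, which keeps peaks ranked alike in both replicates) held 512. The signal of a peak is a score of the authors' peak caller whose scale is not stated, so it was compared only within a list. The IDR peaks had pooled signals of 86.2 to 720, while the median of the whole pooled list was 32.1. In the pooled list 1146 peaks (3.82%) had a q-value under 0.05 by the authors, the weakest of them with a signal of 64.2. The lists hold no read numbers, so the depth of the libraries is unknown. The window of ceh-13 itself held 9 pooled peaks and 2 IDR peaks, the strongest with a signal of 153, and 5.14% of all protein-coding genes had an IDR peak in theirs. Reads from the transgene cannot be told apart there from those of the native gene, so these peaks are no check of the target.

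Proneural bHLH proteins bind DNA as dimers at E boxes (CANNTG) and commit ectodermal cells to neural fates. HLH-2, the only worm protein of the E or Daughterless type, is the common partner, and proteins of the Achaete-Scute, Atonal, NeuroD and Neurogenin families pair with it in particular lineages. CEH-13, the labial-type Hox protein, is a homeodomain factor needed in the early embryo for anterior body patterning, and Hox proteins often bind a composite site (TGATNNAT) together with PBC cofactors such as CEH-20.

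The sequences below lay under the strongest pooled peak overlapped by a peak of both replicate lists, at 4 genes that had one. That of hlh-2 is not shown. Such an overlap did not require a high rank. The ngn-1 peak ranked 29934 in replicate 1 and 23649 in replicate 2, and that of lin-32 ranked 28861 in replicate 1. The sequences are the summit windows, 100 bp to each side. They were read 5′ to 3′ from the plus strand of build ce11, in lower case, with capitals marking E boxes (CANNTG) and composite sites (TGATNNAT on either strand); none held a TAATTA homeodomain core. The hlh-3 window (chrII:9088572-9088772) lies beyond the gene's 3′ end, the lin-32 stretch (chrX:2229977-2230085) is the coding part of its first exon, cut at the start codon, and the cnd-1 (chrIII:5247784-5247984) and ngn-1 (chrIV:2632943-2633143) windows lie in intergenic sequence upstream.
hlh-3: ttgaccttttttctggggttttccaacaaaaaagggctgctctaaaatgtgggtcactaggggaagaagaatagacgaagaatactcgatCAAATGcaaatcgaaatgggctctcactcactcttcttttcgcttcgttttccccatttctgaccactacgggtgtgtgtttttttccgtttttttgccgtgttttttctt
lin-32: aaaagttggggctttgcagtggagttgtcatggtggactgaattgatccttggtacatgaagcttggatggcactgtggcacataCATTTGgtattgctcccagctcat
cnd-1: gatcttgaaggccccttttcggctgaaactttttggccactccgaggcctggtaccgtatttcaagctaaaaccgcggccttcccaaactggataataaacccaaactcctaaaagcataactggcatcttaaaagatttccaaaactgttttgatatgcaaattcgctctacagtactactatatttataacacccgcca
ngn-1: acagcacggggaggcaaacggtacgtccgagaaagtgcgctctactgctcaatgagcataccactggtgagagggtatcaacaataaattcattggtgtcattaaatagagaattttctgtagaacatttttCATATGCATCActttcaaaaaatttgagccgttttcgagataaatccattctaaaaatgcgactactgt
The hlh-3 and lin-32 stretches each held 1 E box, CAAATG and CATTTG. In the ngn-1 window the E box CATATG overlapped the composite site TGATGCAT, which is read on the minus strand, and the cnd-1 window held neither motif.

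None of the 9 genes had an IDR peak in its window, against 1027 of all 19973 protein-coding genes (5.14%). A rough rule for independent draws lets a count of 0 stand for up to 3, here a share of up to 33.3%. The 9 genes were taken by name and are not such draws. At the share of all genes 0.463 of 9 genes would have one, so a list of 9 genes is too small to show a difference. Likewise 0 of 9 genes had a pooled peak with a q-value under 0.05, against 10.3% of all protein-coding genes. Both counts depend on where the window ends: from 10 kb upstream to 2 kb beyond the gene end, a span chosen after the data were seen, 1 of 9 genes, lin-32, had an IDR peak (beside 7.74% of all genes) and a pooled peak with a q-value under 0.05 (beside 15.5%). At least 1 peak of the pooled list lay in the window of 8 of 9 genes (88.9%), beside 83.9% of all protein-coding genes, and hlh-10 was the exception. A share so near that of all genes is no result about the proneural genes. The windows were 7.07 to 10 kb long, with a median of 7.58 kb, beside a median of 8.03 kb for all genes.

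**Figure D1:**
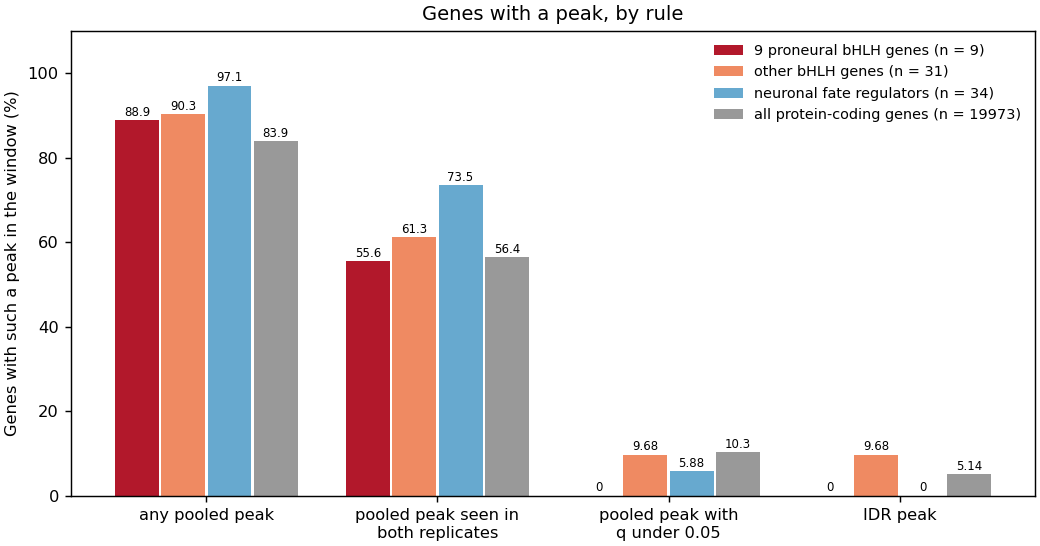
Percentage of genes with a peak in the window under 4 rules (bars, y axis in %), for the 9 proneural bHLH genes, 31 other bHLH genes, 34 neuronal fate regulators and all 19973 protein-coding genes. The 9 genes had 88.9% with any pooled peak and 0% with a peak of q under 0.05 or with an IDR peak.

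The windows held 31 pooled peaks, 26 peaks of replicate 1 and 29 of replicate 2. The 31 pooled peaks had signals of 24.6 to 62.6 with a median of 31.0, close to the 32.1 of the whole list, and ranks of 1266 to 27941 with a median of 16428. Their q-values ran from 0.0597 to 0.889, so the strongest of them missed the 0.05 threshold. The strongest peak per gene, over the 8 genes with one, had a median signal of 42.1, beside 40.5 over all protein-coding genes with a pooled peak.

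**Figure D2:**
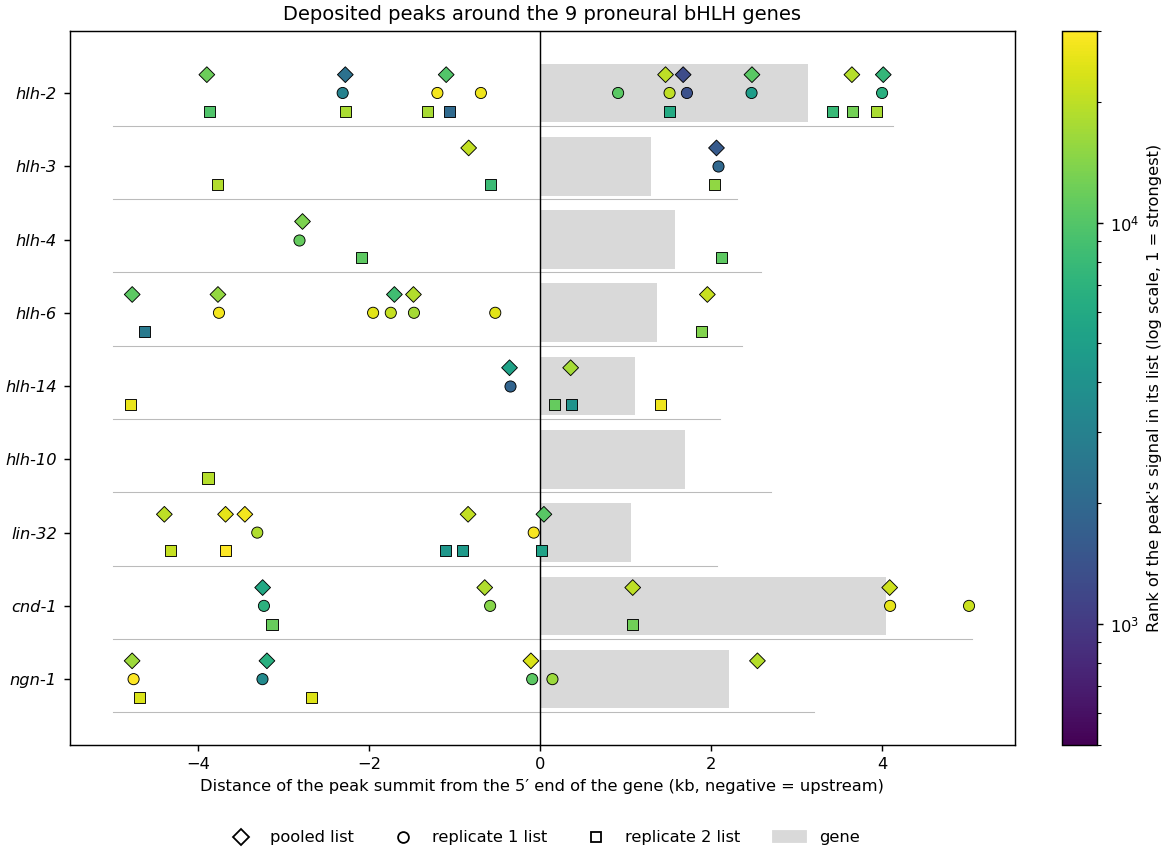
Summits of all peaks in the windows of the 9 genes, by distance from the 5′ end of the gene in kb (x axis, negative upstream), with 1 row a gene; diamonds are pooled, circles replicate 1 and squares replicate 2 peaks, coloured by rank within the list on a log scale, grey bars are the genes and thin lines the windows. The darkest symbols, of the best ranks, lie inside hlh-2 and beyond the end of hlh-3, and hlh-10 has a single peak, of replicate 2.

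hlh-2 (WBGene00001949, chromosome I, 7190788 to 7193920, minus strand), the common dimer partner, had the most peaks and the strongest one. Its window of 9.13 kb held 8 peaks in the pooled list, 8 in that of replicate 1 and 8 in that of replicate 2. As many as 8 pooled peaks or more lay in 4.96% of the windows of all protein-coding genes (990 of 19973). Those windows were of any length, and 109 of the 990 were no longer than that of hlh-2. Some of the 8 pooled peaks overlap one another and were each counted. The strongest had its summit at 7192246, in an intron 1674 bp from the 5′ end, with a pooled signal of 62.6 (rank 1266, q = 0.0597). A weaker pooled peak of signal 28.8 (rank 19896) lay beside it in the same intron, at 7192452. Replicate 1 had 2 peaks there, at 7192202 with a signal of 39.8 (rank 1385, q = 0.0502) and at 7192405 with a signal of 18.9 (rank 20219). Replicate 2 had 1, at 7192406 with a signal of 22.4 (rank 6041), which is 1 bp from the weaker summit of replicate 1 and 204 bp from its stronger one. The intron thus carried signal in both lists, with the stronger pooled summit close to the strong peak of replicate 1 and the weaker one close to the summit that the replicates shared.

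The second peak of hlh-2 lay upstream, 2278 bp before the 5′ end, with a pooled signal of 53.7 (rank 2306, q = 0.184). The 2 replicates placed this summit 32 bp apart, with rank 3087 in replicate 1 and rank 17759 in replicate 2. The peak of replicate 2 that ranked best at this gene was another one, 1057 bp upstream, with a signal of 28.8 (rank 2035). Near it, replicate 1 had a peak of rank 26996 at 692 bp upstream and one of rank 28001 at 1201 bp upstream, both close to the end of its list. Of the 8 pooled peaks at hlh-2, 6 were overlapped by peaks of both replicates, more than at any of the other 8 genes. The 2 at 3648 and 4015 bp from the 5′ end, lay beyond the gene end, in coding exons of the neighbouring gene plag-15. By signal of the strongest pooled peak, hlh-2 stood at place 2242 among the protein-coding genes, with a stronger peak than 72.6% of all 19973, those without a pooled peak not counted among the weaker.

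The 3 genes outside the 9 whose strongest signals were most like those of hlh-2 over the 3 lists were add-1, F39C12.1 and zfh-2. Their Euclidean distances in log2 signal were 0.0425, 0.0425 and 0.0438; add-1 and F39C12.1 had the same 3 values, with a pooled signal of 64.4 each.

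The 4 Achaete-Scute type genes differed among themselves. hlh-3 (WBGene00001950, II, 9086608 to 9087908, plus strand), which acts in the differentiation of the egg-laying HSN neurons, had 2 pooled peaks. The stronger had a pooled signal of 59.2 (rank 1561, q = 0.0952) and lay 764 bp beyond the gene end, in intergenic sequence whose nearest 5′ end of a protein-coding gene is that of hlh-3 itself, 2064 bp away. Both replicates had a peak there with summits 36 bp apart, of signal 36.6 (rank 1958) in replicate 1 and 16.9 (rank 15252) in replicate 2. Its sequence, the first of those printed above, had the E box CAAATG with its nearest base 5 bp from the summit. In replicate 2 the strongest peak of the gene lay elsewhere, 578 bp upstream of the 5′ end, with a signal of 20.6 (rank 8191), and replicate 1 had none at that place.

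hlh-14 (WBGene00001958, II, 5737785 to 5738895, minus strand), needed in the lineage of the PVQ, HSN and PHB neurons, had 2 pooled peaks, 1 on each side of its 5′ end. The upstream one, 357 bp before the 5′ end, had a pooled signal of 44 (rank 5306, q = 0.421), and in replicate 1 a signal of 37.2 (rank 1841), the best rank of that replicate among these 4 genes. No peak of replicate 2 overlapped it. The other, in a coding exon 358 bp downstream of the 5′ end, had a pooled signal of 30.4 (rank 17327), and was overlapped in replicate 2 by a peak of signal 24.6 (rank 4111) and by none of replicate 1. The 2 replicates therefore each had their strongest peak within 1 kb of the 5′ end of hlh-14, but at different places.

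hlh-6 (WBGene00001952, II, 9613463 to 9614828, minus strand), a gene of pharyngeal gland fate, had 5 pooled peaks with signals of 28.0 to 38.5, and no one of them was overlapped by peaks of both replicates. All 5 lay in other genes: the strongest (rank 8608, q = 0.576), 1704 bp upstream, in a coding exon of hal-3, and the others in hal-3, dnj-20 and T15H9.4. The best rank at hlh-6 in replicate 2 was 2639, at 4623 bp upstream, and replicate 1 had no peak there. hlh-4 (WBGene00001951, III, 9737472 to 9739054, minus strand), which specifies the ADL sensory neurons, had 1 pooled peak, of signal 33.5 (rank 13371, q = 0.714), 2779 bp upstream in an intron of T05G5.1. Replicate 1 had a peak there (rank 11340) and replicate 2 had none. The windows of hlh-4 and hlh-6 thus held no pooled peak whose nearest protein-coding 5′ end was their own.

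hlh-10 (WBGene00001954, V, 9280512 to 9282210, minus strand) had no pooled peak and none in replicate 1. Replicate 2 had 1 weak peak of signal 15.5 (rank 19015, q = 0.828), 3879 bp upstream in a coding exon of lron-2.

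lin-32 (WBGene00003018, X, 2229055 to 2230122, minus strand), the Atonal-type gene needed for touch neurons and male sensory rays, had 5 pooled peaks. The strongest lay over the start of its coding sequence, 45 bp from the 5′ end, with a pooled signal of 36.4 (rank 10433, q = 0.635). Replicate 2 had a peak there of signal 23.2 (rank 5285), and replicate 1 one of signal 16 (rank 28861), near the bottom of its list, with summits 90 bp apart. The other 4 had pooled signals of 24.6 to 28.7, and of these the 3 farthest upstream were nearer to the 5′ end of T14F9.2 than to that of lin-32.

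An IDR peak lay just outside the lin-32 window. It had a signal of 155 (rank 188 of the pooled list; X, 2226955 to 2227374) with its summit 1890 bp beyond the gene end, within 500 bp of the tRNA gene WBGene00023139. It ranked 142 in replicate 1 and 742 in replicate 2. It was the only IDR peak within 1 kb outside any of the 9 windows, and the 5 other pooled peaks in those margins had signals of 23.7 to 35.9.

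cnd-1 (WBGene00000561, III, 5240591 to 5244639, minus strand), the NeuroD-type gene of embryonic motor neurons, had 4 pooled peaks. The strongest, 3245 bp upstream in intergenic sequence, had a pooled signal of 42.8 (rank 5808, q = 0.459). It had a signal of 26.9 (rank 6877) in replicate 1 and of 18.5 (rank 11670) in replicate 2, with summits 95 bp apart. cnd-1 was the only one of the 8 genes with peaks in both replicate lists at which the strongest peaks of the 2 replicates overlapped. Over all protein-coding genes with peaks in both lists, 4405 of 15552 (28.3%) had such an overlap, beside 1 of these 8 (12.5%). The remaining 3 pooled peaks of cnd-1, with signals of 27.6 to 29.6, were each seen in a single replicate.

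ngn-1 (WBGene00003595, IV, 2626062 to 2628271, minus strand), the Neurogenin-type gene, had 4 pooled peaks. The strongest, 3195 bp upstream, had a pooled signal of 41.3 (rank 6649, q = 0.495) and a signal of 31.8 (rank 3518) in replicate 1, and no peak of replicate 2 overlapped it. The peak closest to the 5′ end, 107 bp upstream, had a pooled signal of 26.6 (rank 23780), and it too was found in replicate 1 only (rank 10761). The peak seen in both replicates, 4772 bp upstream with the overlapping E box and composite site printed above, had a pooled signal of 31.0 (rank 16428), the median of the 31 peaks, and stood low in the replicate lists, with rank 29934 in replicate 1 and rank 23649 in replicate 2. The remaining peak, 334 bp beyond the gene end, was overlapped by no peak of either replicate, the only such one of the 31.

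**Figure D3:**
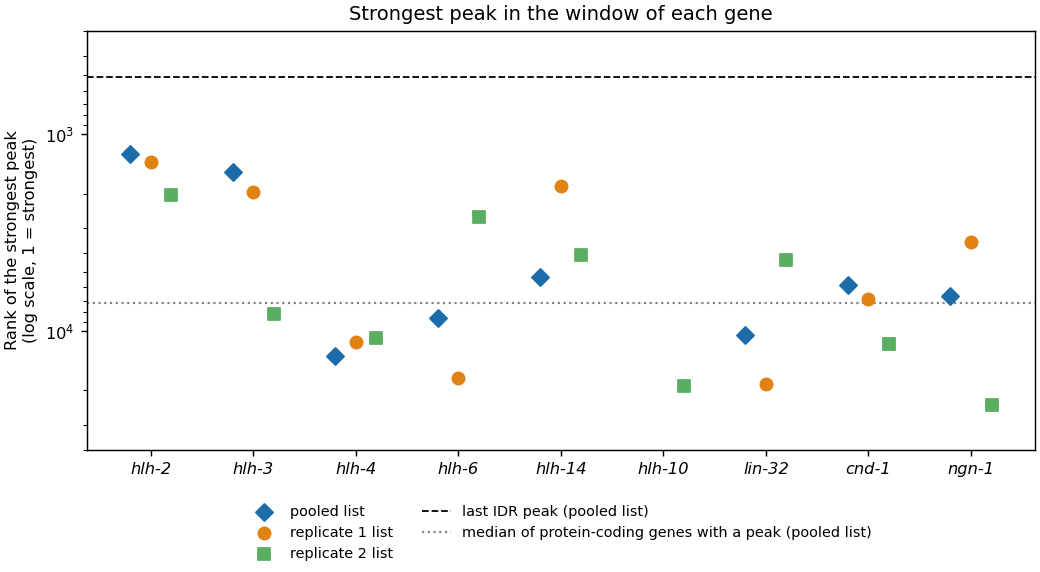
Rank by signal of the strongest peak in the window of each gene (y axis, log scale, best rank at the top) in the pooled list and in the lists of replicates 1 and 2. The dashed line is the last of the 512 IDR peaks and the dotted line the median over protein-coding genes with a pooled peak, 7163. All symbols lie below the dashed line, and the replicates stand far apart at hlh-3, hlh-6, lin-32 and ngn-1.

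Ordered by the rank of the strongest pooled peak, the genes ran hlh-2 (1266), hlh-3 (1561), hlh-14 (5306), cnd-1 (5808), ngn-1 (6649), hlh-6 (8608), lin-32 (10433) and hlh-4 (13371), with hlh-10 last. The replicates did not share this order. In replicate 1 it began hlh-2 (1385), hlh-14 (1841), hlh-3 (1958) and ngn-1 (3518), and in replicate 2 it began hlh-2 (2035), hlh-6 (2639), hlh-14 (4111) and lin-32 (4364). hlh-2 headed all 3 lists, by its intron peak in the pooled list and in replicate 1 and by an upstream peak in replicate 2. ngn-1 had rank 3518 in replicate 1 and rank 23649 in replicate 2.

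Agreement between the replicates followed the rank of the peak. Of the 31 pooled peaks, 12 (38.7%) were overlapped by at least 1 bp by peaks of both replicates, beside 43.6% of all 30000 pooled peaks. Another 10 were seen in replicate 1 only, 8 in replicate 2 only and 1 in neither. The 3 peaks ranked 501 to 5000 were seen in both, as were 85.8% of all pooled peaks of those ranks. Of the 11 ranked 5001 to 15000, 4 were seen in both, beside 53.3% of all such peaks, and of the 17 ranked beyond 15000, 5 were, beside 22.7%.

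**Figure D4:**
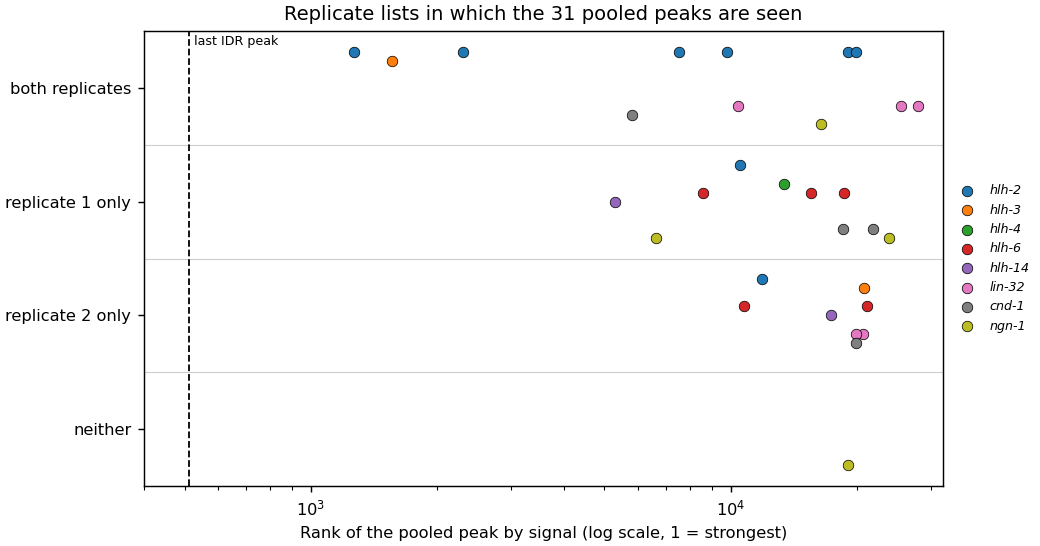
The 31 pooled peaks by rank (x axis, log scale) and by the replicate lists in which an overlapping peak was found (y axis), coloured by gene, with a small vertical shift for each gene. The 3 peaks of best rank, of hlh-2 and hlh-3, are in the top row, and all 31 lie right of the last of the 512 IDR peaks (dashed line).

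The 12 peaks seen in both were at 5 of 9 genes (55.6%), beside 56.4% of all protein-coding genes: hlh-2 with 6, lin-32 with 3, and hlh-3, cnd-1 and ngn-1 with 1 each. Between the strongest overlapping peak of either replicate, summits lay 32 to 578 bp apart, with a median of 204 bp, beside 122 bp over all 13095 such pooled peaks. Between the closest overlapping peaks, they lay 1 to 372 bp apart, with a median of 68 bp, beside 87 bp. Pairs of overlapping pooled peaks at hlh-2 and lin-32 were matched in part to the same replicate peaks. With summits of both replicates required within 100 bp of the pooled summit, 5 peaks at hlh-2, hlh-3 and ngn-1 remained (5 of 31), beside 21.2% of all pooled peaks.

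The density of pooled peaks in the 9 windows was 0.433 per kb, beside 0.308 per kb in the windows of all protein-coding genes and 0.299 per kb of the nuclear genome. Without hlh-2, the densest of the 9 at 0.876 per kb, it was 0.369 per kb. Leaving out the densest gene can only lower the value, and the value of all genes kept its own peak-rich windows. The list of replicate 1 gave 0.364 per kb with hlh-2 and 0.289 per kb without, beside 0.308 per kb for all genes. That of replicate 2 gave 0.405 per kb with hlh-2 and 0.337 per kb without, beside 0.307 per kb. Counting only peaks whose nearest protein-coding 5′ end was that of the proneural gene itself left 20 of 31 peaks, or 0.280 per kb of window, beside 0.143 per kb over all protein-coding genes under the same rule. hlh-2 was not left out of this density, and hlh-4, hlh-6 and hlh-10 gave none of the 20 peaks. The rule also depends on how close the 5′ ends of neighbouring genes lie. No pooled peak in the 9 windows lay within 500 bp of a tRNA, snoRNA or snRNA gene. The share of all pooled peaks near such genes is not given here, so this count has no comparison.

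By position, 16 of the 31 pooled summits were intergenic, 9 lay in other protein-coding genes, 3 in introns of hlh-2, and 3 in exons of hlh-14, lin-32 and cnd-1. The same shares over all pooled peaks are not given here, so these counts only describe where the summits lay. At 5 genes, 7 summits (hlh-3, hlh-14, lin-32, cnd-1 and ngn-1) were in the promoter window of 1000 bp upstream to 500 bp downstream of the 5′ end; 40.5% of all protein-coding genes had a pooled peak in theirs. The first kb upstream held 5 peaks (0.556 per kb), beside 0.346 per kb over all genes. The kb beyond the gene end held 6 (0.667 per kb), beside 0.330 per kb. With so few peaks a single one moves such a density by 0.111 per kb.

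**Figure D5:**
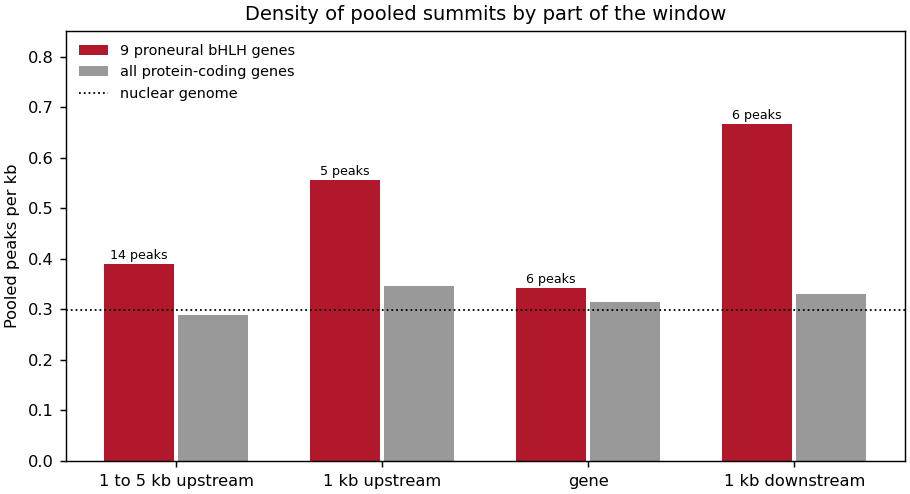
Pooled summits per kb (y axis) in 4 parts of the window, for the 9 proneural bHLH genes (red, number of peaks printed) and all protein-coding genes (grey), with the nuclear genome as a dotted line at 0.299 per kb. The red bars stand on 5 to 14 peaks each and range from 0.342 per kb in the genes to 0.667 per kb in the 1 kb downstream.

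At the summits, Hox-type sites were about as frequent as in the whole pooled list. The composite TGATNNAT was found, on either strand, within 100 bp of 4 of 31 pooled summits (12.9%), beside 12% of all pooled and 7.62% of IDR summits, at hlh-6, lin-32, cnd-1 and ngn-1. The core TAATTA was found at 2 of 31, those of hlh-14 in its coding exon and of lin-32 at 842 bp upstream (6.45%), beside 7.53% of all pooled and 5.47% of IDR summits. An E box CANNTG was found at 21 of 31 (67.7%) and at 7 of the 12 seen in both replicates, beside 54.5% of all pooled and 49% of IDR summits. The GC box GGGCGG was found at 5 of 31 (16.1%), beside 6.75% of all pooled and 15.6% of IDR summits. The repeat GAGAGA was found at 7 of 31 (22.6%), beside 14% and 23.2%. The strongest peak, in the hlh-2 intron, held 2 E boxes and 2 GAGAGA matches and no composite site. The median GC content of the 31 summit windows was 38.3%, beside 40.3% of all pooled windows and 35.4% of the nuclear genome. A match is a description of the sequence, and its absence says only that those letters are not in the window.

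Lists of related genes gave the frame for these values. Of 31 other bHLH genes with a match in the annotation (of 33 names), 3 had an IDR peak in the window (9.68%). A pooled peak lay at 28 (90.3%), and 19 had one seen in both replicates (61.3%). Over all protein-coding genes these shares were 5.14%, 83.9% and 56.4%. mdl-1, which encodes the worm Mad-type partner of Max, had its IDR peak 228 bp upstream of its own 5′ end, with a signal of 87.5 (rank 501). The other two lay by other genes: that of hlh-33 (signal 131) 114 bp upstream of ddp-1, and that of hlh-27 (signal 108) within 500 bp of the spliced-leader genes sls-2.2 and sls-2.3, with ins-13 as the nearest protein-coding gene.

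Of 34 regulators of neuronal fate, none had an IDR peak and 2 had a pooled peak with a q-value under 0.05 (5.88%). A pooled peak lay at 33 of them (97.1%), and 25 had one seen in both replicates (73.5%). Over all protein-coding genes these shares were 5.14%, 10.3%, 83.9% and 56.4%. The windows of the regulators were longer, with a median of 10.8 kb, beside 8.03 kb for all protein-coding genes and 7.58 kb for the proneural genes. The 3 regulators with the strongest pooled signal were ces-2, a bZIP factor gene of programmed cell death in neurons (78.7, rank 635, 1006 bp upstream), sox-3 (74.0, rank 749, in an intron of hch-1) and ham-1, a gene of asymmetric neuroblast division (60.0, rank 1483, in a coding exon). The strongest proneural peak, 62.6 at hlh-2, stood between those of sox-3 and ham-1. The median signal of the strongest pooled peak was 42.1 in the proneural genes, 43.8 in the other bHLH genes and 43.8 in the neuronal regulators, beside 40.5 over all protein-coding genes.

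The distance from each 5′ end to the nearest IDR peak varied widely among the 9 genes, with a median below that of all protein-coding genes. The distances ran from 2957 bp at lin-32 to 479628 bp at hlh-3, with a median of 34104 bp, beside a median of 78762 bp over all protein-coding genes. At 5 of the 9 genes (55.6%) that nearest IDR peak lay within 500 bp of a tRNA, snoRNA or snRNA gene, near the 48.7% of all protein-coding genes and the 53.5% of all 512 IDR peaks.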

How the data were processed

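Peak lists of ChIP-seq with an anti-GFP antibody in 2 replicates of CEH-13-tagged embryos were analysed. Per the deposited files' own notes, peak calling was run by the authors on either replicate alone and on both together, always against 1 shared control, and the IDR list came from those 3 lists. Per the labels, coordinates are in build ce11, with the names of aligner and caller and the IDR cutoff not given in the sources used here. In the deposited peaks, signal is a score of unstated scale. A −log10 q-value, also deposited, was turned back into q. Depth is not given, so no counting interval was made. Positions are 1-based and were matched to Ensembl release 115 on WBcel235, the same assembly; no peak ended beyond a chromosome, and 99.9% of 24287 annotated start codons read ATG. Sequences are from the RefSeq copy of that assembly.

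A pooled peak counted as seen in a replicate when a peak of that list overlapped it by at least 1 bp. Rank 1 is the highest signal. The values are counts, ranks and densities, with no test, since there was 1 group and no second condition. Both replicates share the control file, so part of their likeness can come from it. The members, lists, motifs and rules were chosen with earlier results of these data known. All 9 members are named; other genes named are the neighbours in or by which a member's peaks lie, genes of the 2 lists with an IDR peak, or else the 3 of highest signal, and the 3 of most like signal to hlh-2. plag-15 and the other neighbours of weaker peaks, and ceh-13, were named after their values were seen. Window, overlap and motif searches were tested on simulated data. Computations used Python 3.11.15 with numpy 2.4.6 and pandas 2.3.3.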

Additional observations from a re-analysis of the deposited data

How the results depend on the processing

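No paired analysis was possible because the 2 replicates form a single group. The counts of 0 of 9 genes with an IDR peak or a pooled peak of q under 0.05 say little under narrower windows, stricter thresholds or merging, which can only return 0. A window of 10 kb upstream to 2 kb beyond the gene end, chosen after seeing the data, gave 1 of 9 for each, at lin-32, with 48 peaks (0.382 per kb, beside 0.298 per kb over all genes). Among the 512 strongest peaks of either replicate alone, which is not an IDR list, and at q under 0.05 in either replicate, the count was 0 of 9. The list of replicate 2 or of replicate 1 in place of the pooled list gave 8 to 9 genes with a peak and 26 to 29 peaks. The density was 0.364 to 0.405 per kb. In either list 11 peaks, at 5 genes, overlapped a peak of the other replicate. That count still used both replicates, since each peak overlaps itself in its own list. The window decided the counts most: 2 kb upstream to the gene end left 14 peaks (0.394 per kb), 4 of them seen in both at 2 genes, and the promoter window left 5 genes with 7 peaks (0.518 per kb), of which 1, at 1 gene, was seen in both. The 15000 strongest pooled peaks, with fewer peaks by construction, gave 14 peaks (0.196 per kb), 7 of them seen in both. Giving each peak to the nearest protein-coding 5′ end, with hlh-2 kept in, left 20 peaks (0.280 per kb, beside 0.143 per kb over all genes). Merging overlapping peaks gave 0.378 per kb, beside 0.272 per kb over all genes. Requiring summits within 100 bp left 5 peaks at 3 genes. Of 75 values recomputed, 53 stayed within 1.5 times the reported count, or within the SD of 0.0297 per kb over the 2 replicate lists for the density. That tally is no measure of stability, because part of it was fixed in advance. It includes the zeros that could only stay 0. It also includes the values without peaks near small RNA genes, which could not move since no pooled peak in the 9 windows lay near one. The unknown depth and list size of 30000 limit what the weak peaks can show.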
